A study of Mus musculus with 4 samples.

Results

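The insulin-like growth factor (IGF) system was described at 9 of the 21581 protein-coding genes tested, which were chosen by name and not by any measured value. They are the ligands Igf1 and Igf2, the receptors Igf1r and Igf2r, and the binding proteins Igfbp2, Igfbp3, Igfbp4, Igfbp5 and Igfbp6. The measurement was H3K27ac, an acetylation of histone H3 found at active promoters and enhancers, mapped by ChIP-seq. Each gene's locus was its body and everything within 100 kb of its annotated start in the mouse genome GRCm39. The 9 loci held 116 of the 40899 peak intervals of the limb EGFP+ list, 94 of 34360 in limb EGFP−, 88 of 36231 in trunk EGFP+ and 89 of 30716 in trunk EGFP−. Igfbp2 and Igfbp5 are neighbours and share part of their loci.

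The 4 lists came from limbs and trunks of E14.5 mouse fetuses, in which EGFP was knocked in beside Col2a1, the gene of the main cartilage collagen, so that EGFP+ cells are those with an active Col2a1 locus. The cells of all 4 populations, EGFP− cells included, carry the Col2a1-EGFP allele on the G4 background, a line of embryonic stem cells from which the fetuses were grown by tetraploid aggregation. Each population was 1 library made from pooled tissue, so the values have no replicate error and no test between populations was made. Limb libraries carry the name of another lane than trunk libraries, so that lane and tissue cannot be told apart, and the peak names of the trunk EGFP− list carry replicate 2 although its sample label says 1. The EGFP+ lists fit their labels at cartilage genes, since 12 of 12 had a promoter interval in each of them and 4 of 12 in each EGFP− list. Of 4 muscle genes only Myog was marked, in limb EGFP+ alone, in the upper 81.1%. The 3 epithelial and 3 endothelial genes were marked in no list. Per list, 2 or 3 of 4 connective tissue genes, 1 or 2 of 3 neural genes and 0 or 1 of 3 blood genes were marked. Among neural genes, Sox10 was marked in limb EGFP+ alone, in the upper 62.8%, and Tubb3 in trunk EGFP− alone. Among connective tissue genes, Dcn was marked in both EGFP− lists alone and Scx in trunk EGFP+ alone. The part of these other cell types in the results was not tested, and in such bulk samples fewer marked cells and less mark per cell cannot be told apart.

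IGF1 and IGF2 are secreted growth factors that drive growth of the fetus and of the growth plate through the receptor tyrosine kinase IGF1R. IGF2R takes IGF2 up for breakdown in lysosomes, and the binding proteins hold the ligands in the tissue and limit or release them. Igf2 and Igf2r are imprinted in opposite ways in the mouse, Igf2 being expressed from the paternal copy and Igf2r from the maternal copy, and peak lists do not separate the copies.

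A promoter interval is one that overlaps the window from 2 kb before to 500 bp after an annotated start of a protein-coding gene, and all others are distal. The place of an interval in its list is its rank by −log10 p as a percentage, so that the strongest peaks stand near 0. MACS2, the peak caller, took its background from the 10 kb around each summit of the same library, so each summit also gives the number of reads in those 10 kb. A broad domain with many reads raises this background and lowers its own fold and rank, and the 10-kb reads were therefore read beside the rank. Ratios of EGFP+ to EGFP− reads were divided by the ratio of the library-wide levels, which were 1.49, 1.63, 1.60 and 1.83 reads per 200 bp in limb EGFP+, limb EGFP−, trunk EGFP+ and trunk EGFP−. Their exact 95% intervals cover counting error only. The median summit of a list had 26 to 29 reads, so small counts are uncertain, and the absence of an interval means only that none passed the caller's threshold. Values of the 4 lists are given in this order throughout.

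Promoter intervals were found at 5, 5, 6 and 7 of the 9 genes in limb EGFP+, limb EGFP−, trunk EGFP+ and trunk EGFP−. Over all protein-coding genes the shares were 54.4%, 51.6%, 52.6% and 52.7%. Igf1, Igf2, Igf1r, Igfbp4 and Igfbp5 were marked in all 4 lists, Igfbp2 in both trunk lists, Igf2r in trunk EGFP− alone, and Igfbp3 and Igfbp6 in none. In the limb 0 of the 9 promoters differed between EGFP+ and EGFP−, beside 4.83% of all genes marked in EGFP+ alone and 2.02% in EGFP− alone. In the trunk 0 of 9 were marked in EGFP+ alone, beside 3.22% of all genes, and 1 of 9, Igf2r, in EGFP− alone, beside 3.31%. With such shares, few differences are to be found among 9 genes, and a promoter called in both fractions could still differ in width, place or reads.

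Distal intervals were more frequent at these genes than at most, and the locus of the long Igf1r gene spans 382 kb while the others span 200 kb. The median gene of the genome had 1 distal interval in each list, and the median IGF gene had 7, 5, 3 and 7. The 9 genes together held 86, 69, 60 and 66 distal intervals, each counted a single time. Of these, 48 in limb EGFP+ had no overlapping interval in limb EGFP−, which is 55.8% beside 68.5% of all distal intervals of that list. The other shares without an overlapping interval of the opposite fraction were 43.5% beside 56.6% in limb EGFP−, 50.0% beside 69.1% in trunk EGFP+ and 50.0% beside 57.3% in trunk EGFP−. The shares were not tested, and they move with the length and threshold of the lists. With each list shortened to the length of the shortest, the totals were 50, 61, 45 and 66, of which 31, 39, 23 and 41 had no opposite peak. With −log10 q 5 or higher they were 40, 27, 33 and 22, of which 30, 15, 24 and 12 had none.

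**Figure D1:**
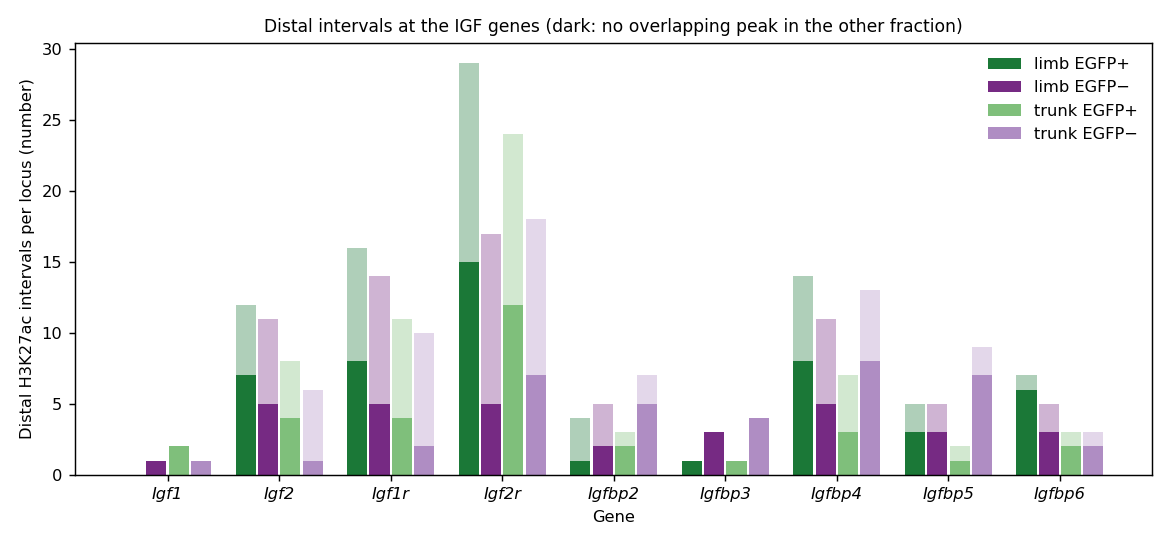
Number of distal H3K27ac intervals at each of the 9 IGF genes (horizontal axis), 1 bar for each list, with the dark part of a bar counting intervals that no interval of the opposite EGFP fraction of the same tissue overlaps. Igf2r stands highest with 29, 17, 24 and 18 intervals, and Igf1 had 0 to 2.

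The distal intervals of the 9 genes merged into 136 regions. Of these, 23 were found in all 4 lists, 16.9% beside 8.87% of all distal regions of the genome. A further 12 were found in both EGFP+ lists and in no EGFP− list, 8.82% beside 10.8%, and 11 in both EGFP− lists and in no EGFP+ list, 8.09% beside 4.62%. By gene, 4 of 9 had at least 1 region of both EGFP+ lists alone, beside 26.7% of all genes, namely Igf2, Igf1r, Igf2r and Igfbp6. Regions of both EGFP− lists alone were found at 7 of 9, beside 15.7% of all genes, that is at every member but Igf1 and Igf2r, with 1 region counted for both Igfbp2 and Igfbp5. Regions of all 4 lists were found at 6 of 9, beside 32.1%. Igf2 and both receptors thus held 10 of the 12 regions of both EGFP+ lists alone, and the binding proteins 8 of the 11 of both EGFP− lists alone. Of these 10, Igf2r held 6. Igf2, Igf1r and Igf2r also held 17, 22 and 34 of the 136 regions of all kinds. Genes with many distal intervals have more chances to hold a region of any kind, and most IGF genes have many. When only intervals with −log10 q 5 or higher were kept, the 12 and 11 regions became 11 and 5, and with lists of equal length 11 and 16. The split of these regions by gene was not recomputed.

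Igf2 lies on the minus strand at chr7:142204503-142220694. Its promoter region held 3, 3, 5 and 2 intervals. Their places in the lists were ordinary, from the upper 29.4% to the upper 66.6%, and their folds were 1.86 to 2.99. The reads in 10 kb gave another picture. The highest value at Igf2 was 2707 reads in limb EGFP+, 1398 in limb EGFP−, 2404 in trunk EGFP+ and 1500 in trunk EGFP−. Among all intervals these ranked 9 of 40899, 86 of 34360, 2 of 36231 and 33 of 30716. By reads in 10 kb Igf2 therefore lay among the strongest intervals of the genome in all 4 populations, although its peaks were of middle rank.

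The domain was stronger in EGFP+ cells. At the intervals shared within each tissue, the 10-kb reads were 2.10 times (95% interval 1.96 to 2.24) and 2.12 times (1.98 to 2.26) higher in EGFP+ in the limb. In the trunk they were 1.80 times (1.69 to 1.93) and 1.82 times (1.71 to 1.95) higher. The windows of neighbouring summits overlap, so such a pair of ratios rests mostly on the same reads. Over all shared promoter regions of the genome, the median of this ratio was 1.27 in the limb and 1.15 in the trunk, and the Igf2 ratios were reached by 5.23% and 5.03% of shared regions in the limb and by 5.15% and 4.95% in the trunk. An interval at chr7:142217130-142217812, within Igf2 and about 3 kb from the annotated gene start, was found in both EGFP+ lists and in neither EGFP− list, with 81 and 93 summit reads.

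Igf2 has 4 promoters in RefSeq, which were placed on GRCm39 by exact match of their sequences. The most upstream one, at chr7:142220504-142220803, had no interval over its window in any list. The one at chr7:142212492-142212791 had 2, 2, 3 and 2 intervals, and with 24 CpG sites it is the richest of the 4 in this dinucleotide. The one at chr7:142214959-142215258 had 1, 0, 1 and 1 intervals, and the one at chr7:142211184-142211483 had 1, 2, 2 and 1. The mark at Igf2 thus lay over downstream promoters in all 4 populations, although 1 of these promoters had no interval in limb EGFP−. Igf2os, an RNA annotated on the opposite strand, starts in the same stretch, and the reads of the pair cannot be assigned to either gene.

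**Figure D2:**
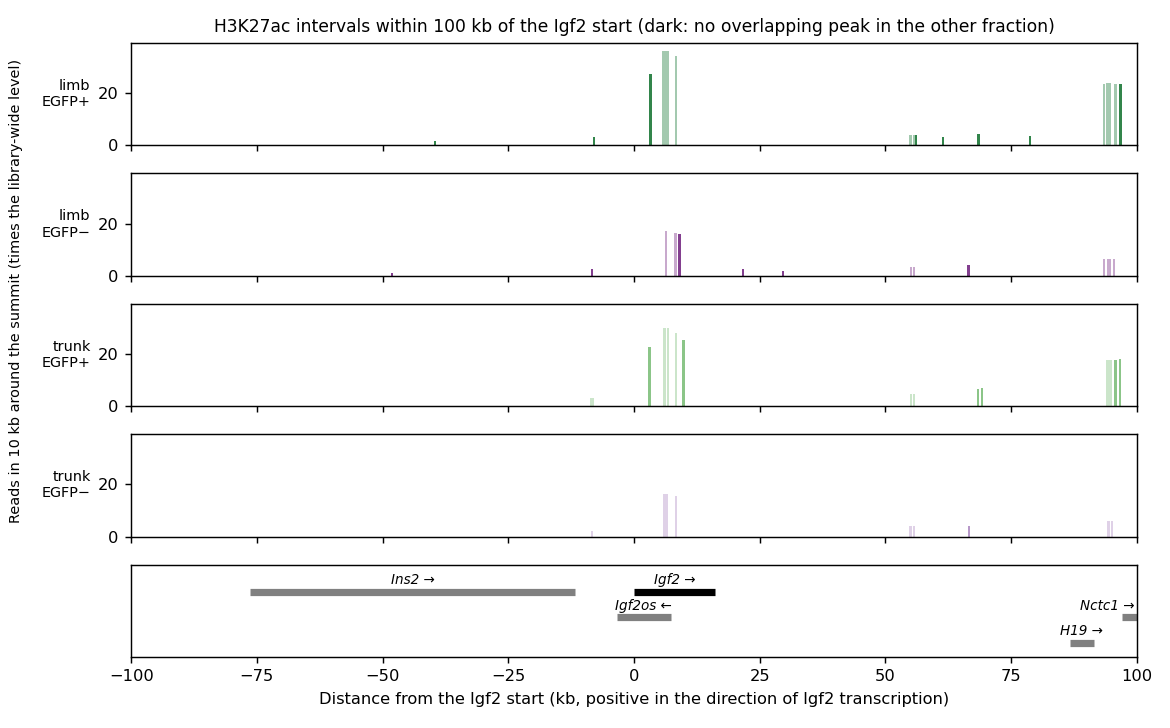
Intervals within 100 kb of the Igf2 start, 1 panel for each list, by distance from the start in kb and with the reads in the 10 kb around each summit, as times the library-wide level, as bar height. Dark bars have no overlapping interval in the opposite fraction, and genes are drawn below. The Igf2 promoters and the stretch beyond H19 rise to 36.3 and 23.8 times the library-wide level in limb EGFP+, while the shared regions near 55 kb have similar heights in all 4 lists.

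The largest differences at Igf2 lay 93.4 to 96.6 kb downstream of its start, beyond H19. H19 is the neighbouring maternally expressed non-coding RNA gene, and enhancers on its far side are known to serve both genes, with an insulator between them that acts on the maternal copy. H19 itself, at chr7:142129262-142133957, had no interval over its body or start in any list. Beyond it, the region chr7:142125542-142126769 was called in all 4 lists, with 99, 31, 79 and 32 summit reads. The corrected ratio of EGFP+ to EGFP− was 3.49 in the limb (2.31 to 5.40) and 2.82 in the trunk (1.85 to 4.40). The same region had 1775 against 519 reads in 10 kb in the limb, a ratio of 3.74 (3.39 to 4.13), and 1431 against 542 in the trunk, a ratio of 3.02 (2.73 to 3.34). Ratios as high were found in 0.818% of all shared limb regions and 0.837% of all shared trunk regions. In each tissue the EGFP+ value lay above the EGFP− value by more than counting error.

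The outermost region of this cluster, chr7:142123559-142124333, was called in both EGFP+ lists and in neither EGFP− list, with 98 and 79 summit reads. It overlaps an exon of Nctc1, a non-coding RNA gene whose start lies there. The 200 bases around its summit in the limb EGFP+ list, chr7:142124034-142124233 of GRCm39 on the + strand, are shown because this was the strongest region of both EGFP+ lists alone at any of the 9 genes. They hold none of the 4 short motifs searched (SOX, FOX, E-box and AP-1, spelled out with the motif counts).
Igf2 region of both EGFP+ lists: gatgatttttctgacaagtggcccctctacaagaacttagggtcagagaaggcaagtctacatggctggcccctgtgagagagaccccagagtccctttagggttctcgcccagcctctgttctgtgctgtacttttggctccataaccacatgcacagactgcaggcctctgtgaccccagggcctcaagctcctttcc

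Between Igf2 and H19, 2 regions near 55 kb were called in all 4 lists. The one at chr7:142164818-142165176 had 35, 32, 28 and 26 summit reads, with corrected ratios of 1.19 (0.718 to 1.99) and 1.23 (0.696 to 2.19). The one at chr7:142165375-142165939 had 18, 25, 36 and 21, with ratios of 0.787 in the limb, within counting error of 1, and 1.96 (1.11 to 3.53) in the trunk. Their 10-kb ratios were 1.10 and 1.10 in the limb and 1.18 and 1.20 in the trunk, close to the medians of all shared distal regions, 1.15 and 1.12. A small region at chr7:142154001-142154299 was called in both EGFP− lists alone, with 21 and 25 summit reads, and one at chr7:142152042-142152392 in both EGFP+ lists alone, with 19 and 26. Over 10 kb the EGFP+ excess of the Igf2 locus was therefore larger at its promoters and beyond H19 than at the shared regions between, while the summit reads of 1 of these were higher in trunk EGFP+.

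Igf1, at chr10:87693642-87772904 on the plus strand, was the least marked ligand. Its promoter windows held 1, 2, 1 and 3 weak intervals with 14 to 23 summit reads, all in the lower part of their lists, between the upper 66.6% and the upper 89.6%. They lay 0.932 to 3.23 kb downstream of the gene start, and no interval of an EGFP+ list overlapped an interval of the EGFP− list of the same tissue. A region at chr10:87695422-87695808 was called in both EGFP− lists and in neither EGFP+ list. The reads in 10 kb were 179 in limb EGFP+ and 167 in trunk EGFP+, and 298 to 300 in limb EGFP− and 318 to 325 in trunk EGFP−, although these windows do not cover quite the same bases. Relative to the library-wide levels they were 2.40 and 2.08 times in the EGFP+ lists and 3.47 to 3.68 times in the EGFP− lists. The Igf1 promoter region was thus called in all 4 lists, but with more reads around it in the EGFP− lists, the opposite of Igf2. Distally Igf1 had 0, 1, 2 and 1 intervals, among them a weak region near 69.3 kb with 8 to 12 summit reads in 3 lists.

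Igf1r, the signalling receptor at chr7:67601518-67883416, had the same 2 promoter intervals in all 4 lists. That at chr7:67600880-67601175 had 91, 41, 52 and 57 summit reads and stood in the upper 18.6%, 46.7%, 34.5% and 25.3% of the lists. That at chr7:67600088-67600701 had 77, 60, 54 and 40. Their 10-kb ratios were 1.86 (1.68 to 2.06) and 1.88 (1.70 to 2.08) in the limb and 1.30 (1.17 to 1.45) and 1.32 (1.18 to 1.47) in the trunk, above the promoter medians of 1.27 and 1.15. RefSeq gives Igf1r a promoter with 48 CpG sites in 300 bases, a number reached by 1.22% of RefSeq promoters.

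Within and around Igf1r there were 16, 14, 11 and 10 distal intervals. The region that reached the top −log10 p among them was intronic, 178 kb into the gene, chr7:67778797-67779844, with 90, 52, 54 and 54 summit reads. It stood in the upper 8.97% of limb EGFP+ and in the upper 20.7%, 21.4% and 21.2% of the other lists. Its corrected ratio was 1.89 (1.33 to 2.71) in the limb and 1.14 (0.769 to 1.70) in the trunk, so the higher value belonged to limb EGFP+ alone. A region upstream at −40.7 kb, chr7:67560599-67561426, was also called in all 4 lists and stood higher than the intronic one in limb EGFP−, in the upper 17.8%. It had 10-kb ratios of 1.65 (1.40 to 1.95) and 1.47 (1.22 to 1.76). Beside it, chr7:67559760-67560256 was called in both EGFP+ lists alone, with 31 and 16 summit reads.

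Other parts of Igf1r went the other way. The intronic region 134 kb into the gene, chr7:67734583-67735301, had 14, 32, 14 and 30 summit reads, so that the EGFP+ values were equal in both tissues and about as low relative to EGFP−. The corrected ratios were 0.478 in the limb (0.236 to 0.921) and 0.533 in the trunk (0.261 to 1.04), and the 10-kb ratios 0.613 (0.499 to 0.750) and 0.646 (0.536 to 0.776). It had the lowest summit ratio of all shared regions of the 9 loci in each tissue, and 98.9% of all shared regions in each tissue had a higher one. The region next to it, chr7:67735559-67735990, was called in both EGFP− lists alone. So was a region at the gene's 3′ end, chr7:67883311-67883929. A single receptor gene therefore held intronic regions that were higher in EGFP+, equal, or lower in EGFP+.

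The upstream Igf1r region of both EGFP+ lists is shown by the 200 bases around its limb EGFP+ summit, chr7:67559854-67560053 of GRCm39 on the + strand. It is shown as a region called in both EGFP+ lists alone that lies outside any annotated gene, and it too holds none of the motifs searched.
Igf1r region of both EGFP+ lists: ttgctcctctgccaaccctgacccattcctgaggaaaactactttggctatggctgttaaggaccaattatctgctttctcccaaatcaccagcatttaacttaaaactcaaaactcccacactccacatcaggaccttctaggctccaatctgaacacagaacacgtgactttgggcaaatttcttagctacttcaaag

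**Figure D3:**
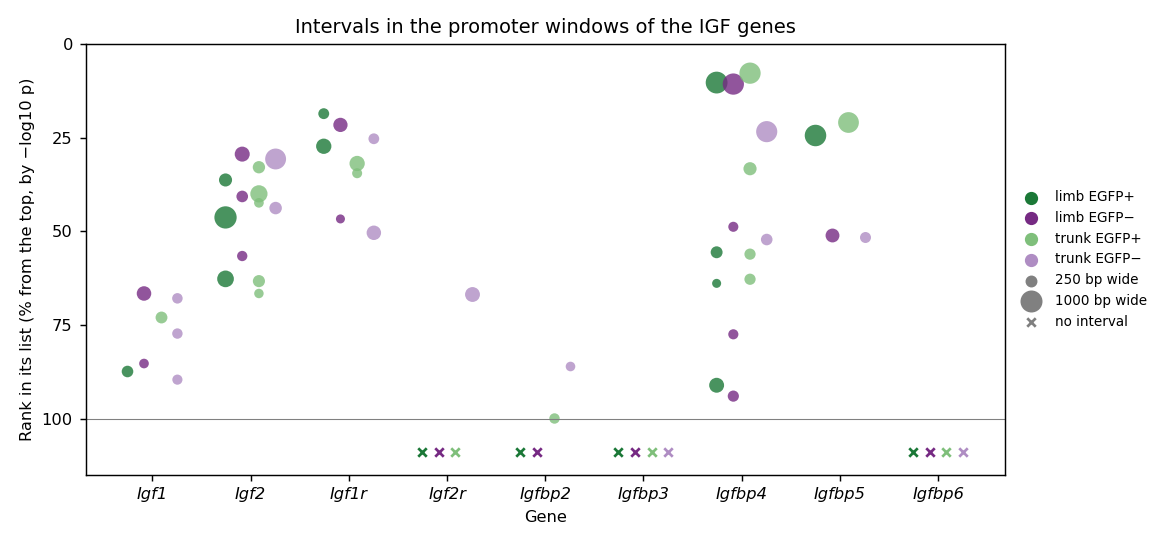
Place of each promoter interval in its list by −log10 p (vertical axis, percent from the top) for the 9 genes, with a colour for each list, a point size that follows the width, and a cross where a list had none. The best Igfbp4 interval of each list stands highest, between 7.79% and 23.4%, while other Igfbp4 intervals stand lower, 1 of them at 94.0% in limb EGFP−. The Igfbp5 intervals of the EGFP+ lists stand above those of the EGFP− lists.

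Igf2r, the uptake receptor at chr17:12901293-12988614 on the minus strand, had more distal intervals than any other member, 29, 17, 24 and 18. With lists of equal length they were 20, 16, 17 and 18, so the order in the trunk turns. As many as in the full lists were found at only 0.0695%, 0.204%, 0.0695% and 0.102% of protein-coding genes. Airn, the paternally expressed non-coding RNA whose transcription silences the paternal Igf2r copy, starts within Igf2r and runs against it past the Igf2r start. Airn's annotated body, chr17:12960198-13079299, held 24, 12, 20 and 14 intervals, so most Igf2r intervals also lie within Airn and cannot be assigned to either gene.

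The start window of Igf2r was called in trunk EGFP− alone, but this rests on a few bases. The nearest interval ended 843, 510, 514 and 490 bp downstream of the gene start, while the window reaches to 500 bp. With windows of 1 kb on each side of the starts, the members marked became 6, 6, 7 and 7. The reads in 10 kb at the region chr17:12986528-12988124 were higher in EGFP+, with 708 against 343 in the limb, a ratio of 2.25 (1.98 to 2.57) between summits 1349 bp apart, and 703 against 473 in the trunk, a ratio of 1.70 (1.51 to 1.91). Summit reads there were 36 against 27 in the limb, a corrected ratio of 1.46 (0.860 to 2.49), within counting error of 1. In the trunk they were 49 against 29, a ratio of 1.93 (1.20 to 3.17). The Igf2r start thus carried the mark on its downstream side in all 4 populations. What made the calls in its window differ was not tested.

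The promoter of Igf2r in RefSeq, chr17:12988544-12988843 on the − strand, holds 34 CpG sites in 300 bases, which 7.73% of RefSeq promoters reach. Its window, set from the RefSeq start, held 0, 1, 1 and 1 intervals. It is shown because CpG-rich starts are marked as a rule, and this one lay at the edge of the mark. Of the 867 genes with as many CpG sites around the start, 86.3%, 82.6%, 83.7% and 83.4% had a promoter interval in the 4 lists. Capitals mark the CpG sites.
Igf2r promoter: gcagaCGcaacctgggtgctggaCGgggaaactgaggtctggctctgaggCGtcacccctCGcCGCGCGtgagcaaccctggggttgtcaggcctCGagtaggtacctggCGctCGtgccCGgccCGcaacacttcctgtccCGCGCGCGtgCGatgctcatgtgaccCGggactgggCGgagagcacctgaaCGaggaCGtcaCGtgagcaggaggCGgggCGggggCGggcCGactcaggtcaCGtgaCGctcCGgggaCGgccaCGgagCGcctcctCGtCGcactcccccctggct

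Just inside Igf2r, 2 further regions were called in both EGFP+ lists and in neither EGFP− list. That at chr17:12985729-12986312 had 51 and 46 summit reads, and that at chr17:12984852-12985368 had 50 and 42. The first is shown by the 200 bases around its limb EGFP+ summit, chr17:12985847-12986046 of GRCm39 on the + strand, in which capitals mark the E-box CAGCTG.
Igf2r region of both EGFP+ lists: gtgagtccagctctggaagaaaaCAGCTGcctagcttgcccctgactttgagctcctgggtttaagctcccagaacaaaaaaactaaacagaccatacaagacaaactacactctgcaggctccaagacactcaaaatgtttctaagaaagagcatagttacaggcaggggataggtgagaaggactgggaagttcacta

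The start of Airn, 28.1 kb into Igf2r, was called in all 4 lists. The region chr17:12960210-12960694 had 60, 47, 36 and 40 summit reads, with corrected ratios of 1.39 (0.936 to 2.09) and 1.03 (0.637 to 1.66), and its 10-kb ratios were 1.60 (1.42 to 1.81) in the limb and 1.24 (1.08 to 1.41) in the trunk. Deeper in the gene, at 44.5 kb, the region chr17:12942520-12944409 had 64, 30, 44 and 31 summit reads. Its 10-kb ratios were 1.98 (1.76 to 2.24) in the limb, between summits 1122 bp apart, and 1.70 (1.52 to 1.90) in the trunk. Over 10 kb the EGFP+ values were the higher ones at both regions in both tissues, beside medians of 1.15 and 1.12 for all shared distal regions. In the trunk the interval of the Airn start includes this median, and 34.2% of shared trunk regions reached its ratio. At the summit of the Airn start the fractions did not differ beyond counting error.

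Upstream of Igf2r the picture changed with distance. A cluster of regions 20.7 to 24.8 kb upstream was equal in both fractions, with 10-kb ratios of 1.11 in the limb and 0.983 to 1.02 in the trunk. The region at −11.3 kb, chr17:12998861-13000893, was somewhat higher in EGFP+, with 1.19 (1.05 to 1.34) and 1.28 (1.13 to 1.44). The medians of all shared distal regions were 1.15 and 1.12. From −66.3 to −76.8 kb, around Mas1, the gene of an angiotensin peptide receptor, the mark was found mainly in EGFP+ cells. The regions chr17:13054646-13055242, chr17:13055623-13056400 and chr17:13063988-13064919 were called in both EGFP+ lists alone, with 44 to 57 summit reads in the limb and 37 to 41 in the trunk. The body of Mas1 held 7, 0, 4 and 1 intervals. At −76.8 kb, chr17:13064924-13066002, trunk EGFP+ had 42 summit reads and trunk EGFP− 14, a corrected ratio of 3.43 (1.84 to 6.80). Its 10-kb reads were 623 against 172, a ratio of 4.14 (3.49 to 4.93), which 0.247% of all shared trunk regions reached.

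**Figure D4:**
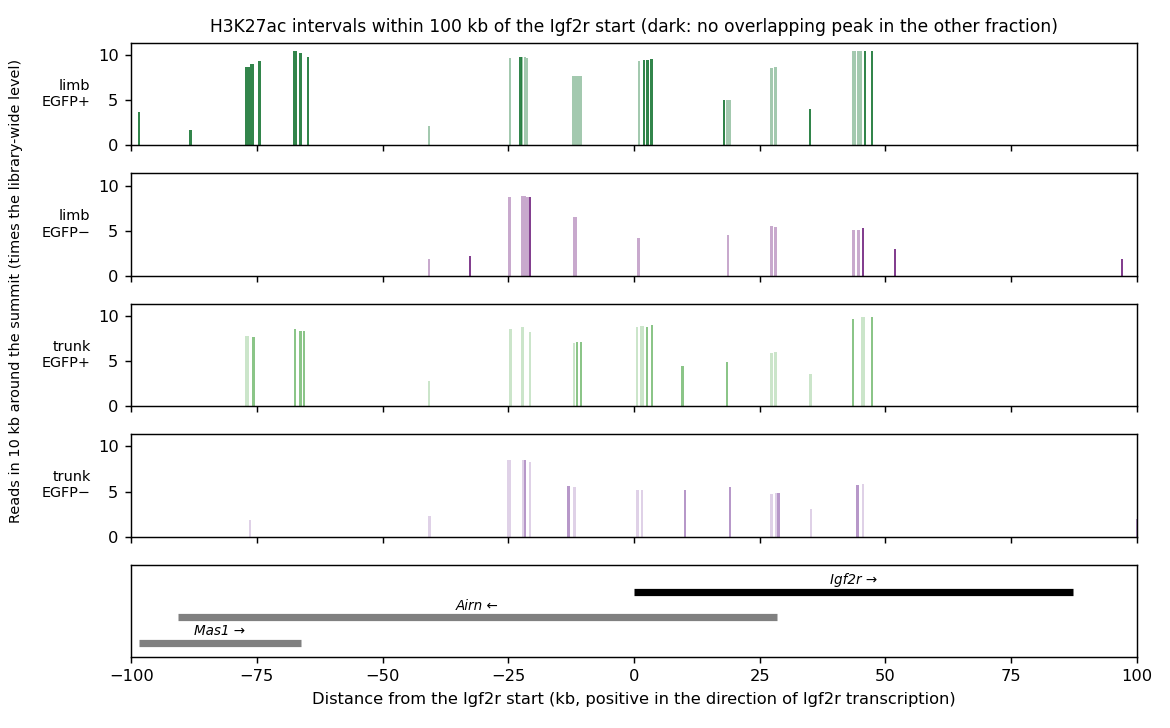
Intervals within 100 kb of the Igf2r start, drawn as for Igf2, with distance in kb on the horizontal axis and reads in 10 kb over the library-wide level as bar height. From −66.3 to −76.8 kb bars stand in the EGFP+ lists, with 1 low bar in trunk EGFP− and none in limb EGFP−, and between −20.7 and −24.8 kb all 4 lists have bars of similar height.

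The binding proteins began with a pair of neighbours on chromosome 1. Igfbp5, at chr1:72897091-72914043 on the minus strand, is a main binding protein of bone and cartilage. Its promoter interval was wide in EGFP+ cells and narrow in EGFP− cells, 1136, 472, 1058 and 296 bp. It stood in the upper 24.3% and 20.8% of the EGFP+ lists and in the upper 51.0% and 51.4% of the EGFP− lists. Summit reads were 77, 38, 64 and 44, with corrected ratios of 2.21 (1.48 to 3.36) in the limb and 1.66 (1.12 to 2.50) in the trunk. In 10 kb the limb ratio was 1.75 (1.57 to 1.94), but the trunk ratio was 1.08 (0.971 to 1.20), with 704 against 747 reads and summits 736 bp apart. Over all shared promoter regions the medians were 1.35 and 1.19 at the summit and 1.27 and 1.15 over 10 kb. Igfbp5 thus stood above these medians beyond counting error in the limb alone. In the trunk the summit ratio lay above 1, but its interval includes the median, and 13.1% of shared trunk regions reached that ratio.

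The calls within Igfbp5 also differed in place. The region chr1:72910649-72911488, between 2.88 and 3.24 kb from the start, was called in both EGFP− lists alone, with 31 and 38 summit reads. Trunk EGFP− also had an interval at chr1:72912900-72913325 with 44 summit reads, which overlaps the wide promoter interval of trunk EGFP+ and was counted as distal, being just outside the window. Distal intervals of Igfbp5 numbered 5, 5, 2 and 9. The region at −88.4 kb, chr1:73002349-73002849, had 25, 11 and 16 summit reads in limb EGFP+, limb EGFP− and trunk EGFP− and was not called in trunk EGFP+. The one at −95.0 kb, chr1:73008925-73009205, was called in both EGFP− lists alone with 16 and 18. At −70.8 kb the trunk lists shared a weak region with 8 against 14 summit reads and a 10-kb ratio of 0.461 (0.354 to 0.595).

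Igfbp2, at chr1:72863606-72891634, is a binding protein widely made in the embryo. It had promoter intervals in the trunk alone, and both were among the weakest of their lists. That of trunk EGFP+, with 9 summit reads, stood at 99.9% from the top, and that of trunk EGFP−, with 18, at 86.0%, and they did not overlap. RefSeq gives 2 Igfbp2 promoters with 18 and 14 CpG sites. Of its 4, 5, 3 and 7 distal intervals, 1 region was called in all 4 lists, at −93.7 kb (chr1:72769767-72770222), with 13, 19, 16 and 22 summit reads. Its corrected ratios of 0.747 (0.339 to 1.60) and 0.831 (0.408 to 1.66) do not differ from 1 beyond counting error. The Igfbp2 promoter thus had a weak interval in each trunk list and none that passed the threshold in the limb lists. The Igfbp2 locus, which includes the Igfbp5 promoter 50.3 kb away, held distal intervals in all 4.

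Igfbp3, at chr11:7156086-7164179 on the minus strand, codes for the main carrier of IGFs in blood. It had no promoter interval in any list, although its RefSeq promoter holds 37 CpG sites, which 5.58% of RefSeq promoters reach. Its distal intervals were few, 1, 3, 1 and 4, and none had an overlapping interval in the opposite fraction. Regions at chr11:7152567-7153129 and chr11:7231123-7231748 were called in both EGFP− lists alone, with 11 and 13 and with 17 and 18 summit reads. An intronic interval at chr11:7162066-7162458 was called in trunk EGFP− alone, with 19. All regions of Igfbp3 that were called in more than 1 list thus came from the EGFP− lists. They were weak, with their best places at 84.5% and 66.2% from the top. With −log10 q 5 or higher, Igfbp3 kept 0, 0, 0 and 1 distal intervals, so no region in more than 1 list was left. The 200 bases around the limb EGFP− summit of the second region, chr11:7231531-7231730 of GRCm39 on the + strand, are shown for it, and capitals mark a FOX motif.
Igfbp3 region of both EGFP− lists: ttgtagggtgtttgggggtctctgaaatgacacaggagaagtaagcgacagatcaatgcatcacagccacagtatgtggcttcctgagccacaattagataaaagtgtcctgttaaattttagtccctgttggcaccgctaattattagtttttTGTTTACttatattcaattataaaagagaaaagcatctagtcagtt

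Igfbp4, at chr11:98932064-98945218, codes for an inhibitory binding protein that is cut by the protease PAPP-A. Its promoter was the best ranked of the 9. The interval over chr11:98930834-98932003 stood in the upper 10.3%, 10.7%, 7.79% and 23.4% of the lists, with widths of 1170, 1108, 1109 and 1096 bp and 99, 82, 78 and 59 summit reads. The corrected ratio was 1.32 (0.974 to 1.79) in the limb and 1.51 (1.06 to 2.16) in the trunk, and in 10 kb 1.34 (1.22 to 1.48) and 1.13 (1.01 to 1.26). The medians of shared promoters were 1.35 and 1.19 for summit reads and 1.27 and 1.15 in 10 kb. Each of these intervals includes its median. The trunk summit ratio stood furthest above its median, and 20.2% of all shared trunk regions reached it. The interval just before the Igfbp4 start was thus well ranked in all 4 populations. Further promoter intervals, 5.51 and 6.35 kb into the gene, were called in every list but trunk EGFP−.

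Igfbp4 had 14, 11, 7 and 13 distal intervals in 26 regions. The most frequent pattern was limb EGFP+ alone, with 8 regions, beside 2 of limb EGFP− alone, 2 of trunk EGFP+ alone and 4 of trunk EGFP− alone. These 8 are 30.8% of its regions, beside 21.8% of all distal regions, where this pattern was also the most frequent. With lists of equal length the distal intervals of Igfbp4 were 6, 10, 6 and 13, so limb EGFP+ no longer had the most. None was called in both EGFP+ lists alone, and 3 were called in both EGFP− lists alone. The strongest of them, chr11:99022984-99023478 at 91.2 kb, had 44 and 24 summit reads and stood in the upper 35.0% of limb EGFP− and the upper 87.1% of trunk EGFP−. The others were chr11:99024140-99024441 with 26 and 24 and chr11:98946259-98946706, just behind the gene, with 20 and 15. Of its 6 shared distal regions in the limb, 4 had 10-kb ratios below 1 and 2 above. The region at 79.7 kb had a 10-kb ratio of 0.529 (0.440 to 0.633), that at 24.7 kb 0.582 (0.455 to 0.742), that at 30.8 kb 0.738 (0.607 to 0.895) and that at −89.9 kb 0.687 (0.585 to 0.806), while those at −77.2 kb and 65.5 kb had 1.35 (1.22 to 1.51) and 1.14 (0.931 to 1.39). In the trunk the 4 shared distal regions had 10-kb ratios of 0.944 (0.830 to 1.07) at −89.9 kb, 1.06 (0.869 to 1.28) at 30.8 kb, 1.62 (1.36 to 1.93) at 71.6 kb and 1.14 (0.966 to 1.35) at 79.7 kb. The ratios at Igfbp4 thus went both ways in the limb, and none of the trunk ratios lay below 1 beyond counting error. The strongest region of both EGFP− lists alone is shown by the 200 bases around its limb EGFP− summit, chr11:99023147-99023346 of GRCm39 on the + strand, which hold none of the motifs searched.
Igfbp4 region of both EGFP− lists: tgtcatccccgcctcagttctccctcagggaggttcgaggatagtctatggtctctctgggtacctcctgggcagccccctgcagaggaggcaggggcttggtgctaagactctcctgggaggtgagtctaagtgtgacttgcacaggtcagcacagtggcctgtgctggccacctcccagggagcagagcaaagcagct

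Igfbp6, at chr15:102052697-102057953, codes for a binding protein that prefers IGF2. It had no promoter interval in any list. The nearest interval lay 5918 bp downstream in limb EGFP+, and 7322, 7241 and 7371 bp upstream in the others, at the promoter of Spryd3. The locus is crowded, and promoters of its neighbours held 12, 9, 8 and 7 intervals, among them that of Eif4b, a translation factor gene, in the upper 0.594% of limb EGFP+. Distal intervals numbered 7, 5, 3 and 3. Of these, chr15:102015203-102015591 was called in both EGFP+ lists alone with 95 and 74 summit reads, but it lies within Tns2, a gene of the focal adhesion protein tensin 2. There the 10-kb reads were 2170 and 1778, in the upper 0.112% and 0.0828% of the lists. The region of both EGFP+ lists at chr15:101995988-101996422 was weak, with 17 and 18 summit reads. Behind Igfbp6, at 23.4 kb, chr15:102075854-102076486 was called in both EGFP− lists alone with 28 and 22. It lies outside any annotated gene, and the 200 bases around its limb EGFP− summit, chr15:102075996-102076195 of GRCm39 on the + strand, are shown as the region of both EGFP− lists alone in the Igfbp6 locus.
Igfbp6 region of both EGFP− lists: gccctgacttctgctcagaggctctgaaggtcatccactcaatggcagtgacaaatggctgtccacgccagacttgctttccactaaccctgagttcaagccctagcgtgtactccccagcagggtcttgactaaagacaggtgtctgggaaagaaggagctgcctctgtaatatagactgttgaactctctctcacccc

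Over all shared regions of the 9 loci, neighbouring promoters included, the EGFP+ summit reads were at least 2 times the EGFP− reads at 14 of 57 regions or 24.6% in the limb, beside 12.7% of all shared limb regions, and at 4 of 46 or 8.70% in the trunk, beside 5.71%. The opposite was found at 1 of 57 in the limb, beside 1.32%, and at 0 of 46 in the trunk, beside 0.763%. The median ratio was 1.40 in the limb and 1.26 in the trunk. Over all shared regions of the genome the medians were 1.35 at promoters and 1.21 at distal regions in the limb, and 1.19 at both in the trunk. Of the 14 limb regions, 3 lay beyond H19, 3 in Igf2r, 1 at the Igf1r promoter and 5 at promoters of neighbours of Igfbp6. The other 2 were the Igfbp5 promoter and the region at −88.4 kb from it. Without the 5 at neighbours of Igfbp6, the 9 remaining ones were all in the loci of Igf2, the receptors or Igfbp5. The regions are not separate observations, since the 3 beyond H19 lie side by side, as do several at the neighbours of Igfbp6. The 4 trunk regions were 1 beyond H19, 2 upstream of Igf2r and 1 at Tns2.

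**Figure D5:**
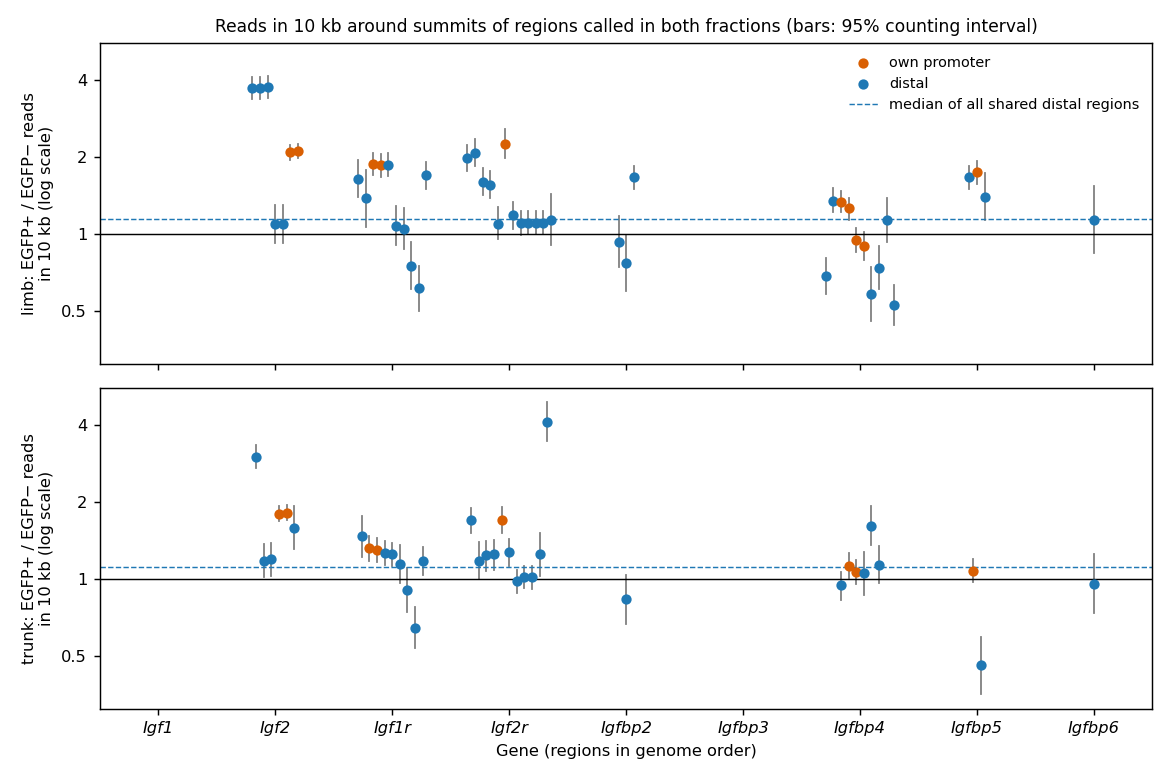
Ratio of EGFP+ to EGFP− reads in the 10 kb around the summits, divided by the ratio of the library-wide levels, at the promoter and distal regions called in both fractions of the limb (top) and trunk (bottom), on a log axis, with exact 95% intervals for counting error. The regions beyond H19 stand at 3.02 in the trunk panel and at 3.72 to 3.76 in the limb panel, and the lowest values are 0.529 at Igfbp4 in the limb and 0.461 at Igfbp5 in the trunk.

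The distal intervals of the 9 genes were searched in the 200 bases around their summits for SOX (ACAAAG or ACAATG), FOX (TGTTTAC), the E-box CAGCTG and AP-1 (TGACTCA), on both strands. SOX motifs were found in 18.6%, 23.2%, 25.0% and 21.2%, beside 23.9%, 26.0%, 23.5% and 24.7% of all distal intervals. E-boxes were found in 10.5%, 17.4%, 16.7% and 18.2%, beside 12.9%, 14.4%, 13.9% and 16.0%. FOX motifs were found in 3, 4, 2 and 4 intervals, or 3.49%, 5.80%, 3.33% and 6.06%, beside 2.75%, 2.81%, 2.74% and 2.73%. AP-1 motifs were found in 2, 1, 2 and 3, or 2.33%, 1.45%, 3.33% and 4.55%, beside 3.21%, 3.29%, 2.82% and 3.12%. The FOX shares in the EGFP− lists rest on 4 intervals each and were not tested, and a match of such short letters is no evidence of binding.

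Other genes of the pathway were read from a list of 24, which holds further binding proteins, proteases, the insulin receptor, receptor substrates and regulators of Igf2. Their promoters were marked at 17, 13, 14 and 14 of 24, beside 54.4%, 51.6%, 52.6% and 52.7% of all genes. A region of both EGFP+ lists alone was found at 9 of 24, beside 26.7% of all genes, and a region of both EGFP− lists alone at 7 of 24, beside 15.7%. The promoters of Igfbp7, a distant relative of the binding proteins, of Grb14, an adaptor that inhibits insulin signalling, and of Plagl1, an imprinted zinc finger gene known to regulate Igf2, were marked in limb EGFP+ alone, in the upper 55.4%, 47.8% and 43.9%. That of Irs2, a receptor substrate, was not called in limb EGFP−, that of Stc2, an inhibitor of PAPP-A, was not called in trunk EGFP+, and that of the protease gene Htra1 was called in trunk EGFP+ alone. Grb10, an imprinted adaptor that restrains growth, had 10, 1, 8 and 1 distal intervals, and Hmga2, the gene of a chromatin protein that promotes growth, had 14, 5, 17 and 3. These 2 genes had the largest excess of EGFP+ over EGFP− distal intervals of the list in both tissues. Akt1, a kinase downstream of the receptor, had a marked promoter in all 4 lists, in the upper 3.69%, 12.9%, 8.26% and 19.6%, and 4 regions of both EGFP+ lists alone. The promoters of Pappa and Pappa2, the proteases that cut Igfbp4 and Igfbp5, and of Igfbp1 were not marked in any list. Igfbp1 lies beside Igfbp3 and shares its distal intervals.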

How the data were processed

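H3K27ac ChIP-seq peak lists of 4 sorted populations, 1 library each, were analysed. According to the paper's methods, reads were sampled to 1 depth, mapped to GRCm39 and extended to 200 bp before peak calling per library, and no control library is named. The submitters' processing notes list cutadapt 1.18, Bowtie2 2.3.5.1, SAMtools and MACS2 2.2.7.1. Each deposited entry has a score, made by the authors' MACS2 as 10 times the −log10 q. The deposited fold divides the reads piled up at the summit by the local background of that library. The −log10 p and −log10 q were also deposited as the authors' caller wrote them, with −log10 q from 1.30 upward.

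Entries that shared a start and an end were treated as 1 interval, ranked by its highest −log10 p. Summit and background reads were solved from each pair of fold and −log10 p, which succeeded for 100% of summits, and the reads in 10 kb came out whole, within 0.1, for 100%. An interval had an opposite peak where an interval of the other fraction overlapped it by at least 1 bp, and regions are intervals of the 4 lists joined where they overlap. Genes and the 67388 start sites came from the GENCODE annotation of GRCm39. Promoters (250 bases before to 50 after a start) and their CpG counts came from RefSeq, with positions matched to GRCm39 by sequence. For the genes with as many CpG sites as Igf2r, the sites were counted over the same span around the GENCODE gene start. For each gene up to 3 regions by −log10 p, the regions of 1 fraction in both tissues, and the shared regions with the most extreme ratios were described. The 9 genes were chosen by name and not by a measured value. They and the gene lists were nevertheless chosen with earlier results of these data known. The use of 10-kb reads and the counts of regions of 1 fraction at other thresholds were added after the values were seen. The read recovery and the calls were tested on simulated data. Which library had which of the read lengths and sonicators named is not given in the sources used here. Software was samtools 1.23.1, pysam 0.24.0, scipy 1.17.1, matplotlib 3.10.9, pandas 2.3.3 and numpy 2.4.6 under Python 3.11.15.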

Additional observations from a re-analysis of the deposited data

How the results depend on the processing

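Counts are given in the order limb EGFP+, limb EGFP−, trunk EGFP+ and trunk EGFP−. With a −log10 q of at least 5, the 9 genes kept 40, 27, 33 and 22 distal intervals, of which 30, 15 and 12 had no opposite peak in limb EGFP+, limb EGFP− and trunk EGFP−. Members with a promoter interval fell to 4 in trunk EGFP−, and the median number of distal intervals per member and list fell from 6.5 to 2. With a fold of at least 4, distal intervals were 20, 17, 9 and 7, those without an opposite peak 13, 8, 6 and 4, members with a promoter interval 2 in each list, and the median per member 1. With lists of equal length, limb EGFP+ had 50 distal intervals, 31 of them without an opposite peak. Within 50 kb there were 50, 44, 36 and 42 distal intervals, 25, 16 and 20 of them without an opposite peak in limb EGFP+, trunk EGFP+ and trunk EGFP−, and a median of 2 per member. Within 200 kb, 77 in limb EGFP+ and 48 in trunk EGFP+ had no opposite peak, and the median was 11.5. With the start of the gene record alone, 3, 3 and 4 members had a promoter interval in limb EGFP+, limb EGFP− and trunk EGFP−. Where no opposite peak was allowed within 1 kb, 18 and 21 remained in trunk EGFP+ and trunk EGFP−. With 10-kb reads in place of summit reads, the shared regions at least 2 times higher in EGFP+ numbered 13 in place of 18. Regions of both EGFP+ lists alone numbered 11 with a −log10 q of at least 5 and 11 with equal lengths, and regions of both EGFP− lists alone 5 and 16. Of 324 counts per gene and list, 200 stayed within 1.5 times and 124 moved further. A stricter threshold or a smaller window keeps fewer intervals by construction, and the cause of the other moves was not tested. No paired analysis was possible because the populations share only replicate number 1 and no test was made between them. With summits of 26 to 29 reads in the median, depth limits what can be read from single weak peaks.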
